A study of Mus musculus with 45 samples.

Results

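The highest-numbered sections of mouse embryos were compared at 3 stages after implantation (E5.25, E5.5, then E5.75), to see which genes gain or lose rank with stage at that end of the embryo. They are the last 3 columns of each stage's table, sections 6, 7 and 8 at E5.25, columns 9, 10 and 11 at E5.5 and sections 17, 18 and 19 at E5.75, and were chosen by number alone. These 9 columns come from 10 of the 45 labelled samples of the study, because column 9 of E5.5 joins parts A and B of section 9. The titles call columns 10 and 11 of E5.5 parts A and B of section 10, whereas their source names call them sections 10 and 11.

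All samples are untreated mouse embryos, recovered fresh from the decidua, frozen, cut into numbered sections and collected by laser capture microdissection, with RNA read by Smart-seq2, which reads whole transcripts from small inputs. The labels name no strain, sex or genotype, and as far as they say each stage is 1 embryo. Stage, embryo and position can therefore not be told apart in any difference between stages, and the 3 columns of a stage are sections of 1 embryo and not separate animals.

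Soon after implantation the mouse embryo is a cup. Its epiblast forms the embryo proper, the extraembryonic ectoderm above it holds trophoblast stem cells, and the ectoplacental cone above that grows into the uterine wall and gives rise to placental trophoblast. BMP4 from the extraembryonic ectoderm signals to the epiblast, FGF from the epiblast keeps trophoblast stem cells dividing through the ERK kinases, and cells that leave this signal turn on genes of the cone and of giant cells. Visceral endoderm, an absorptive epithelium that makes apolipoproteins, wraps the epiblast and extraembryonic ectoderm.

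The 3 tables were normalized separately, so levels were not compared across stages. Instead each of the 8832 genes present in all tables was ranked within each column, and its percentile is the share of those genes below it, with genes listed at 0 sharing a mean rank. A gene is said to gain rank at a later stage where its percentile in each later column was above that in each earlier column, the medians were at least 20 points apart and log2(FPKM + 1) was at least 1 in at least 2 columns of the higher stage, and to lose rank in the mirror case. No p-value across stages is possible with 1 embryo per stage. Genes near the top have no room to gain 20 points.

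The columns differed in detection. Of the shared genes, 5466 to 6352 reached an FPKM of 1 at E5.25, 5662 to 5965 at E5.5 and 6130 to 7206 at E5.75, and 559 to 1775 were listed at 0. Genes at 0 shared percentiles of 3.16, 8.97 and 8.34 in the E5.25 columns and 4.82, 6.02 and 4.84 at E5.5. At E5.75 they shared 3.62, 3.43 and 10.05. These percentiles mark a value of 0 and differ between columns only through the number of genes at 0. The ribosomal RNA precursor Rn45s took 0.676% to 7.85% of the summed FPKM. Spearman correlations across genes between columns of a stage were 0.644 to 0.734 at E5.25, 0.790 to 0.827 at E5.5 and 0.764 to 0.870 at E5.75. Between E5.25 and E5.75 columns they were 0.626 to 0.823, so columns of different stages were at times as alike as columns of 1 stage.

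Some markers of extraembryonic tissue stood high in all 9 columns, but the markers did not all go one way. Elf5, a transcription factor of trophoblast stem cells, changed little. Elf5 stood at percentiles 87.9, 89.99 and 88.4 in the E5.25 columns, 88.4, 88.9 and 92.3 at E5.5 and 91.9, 92.2 and 91.4 at E5.75, and no pair of stages passed the rule. Phlda2, whose imprinted product restrains growth of the placenta, was near the top throughout. Phlda2 stood at percentiles 96.6, 97.4 and 96.1 in the E5.25 columns, 95.8, 98.5 and 98.5 at E5.5 and 99.4, 99.5 and 99.3 at E5.75. Pou5f1, the defining pluripotency factor of the epiblast, was listed at 0 in 8 of the 9 columns, the exception being section 6 of E5.25 with a log2(FPKM + 1) of 2.20. Other markers went the other way. In the E5.25 columns Pou3f1, of the epiblast list, stood at percentiles 89.4, 90.3 and 88.4. Its mean in those columns was 4.36 log2 units, beside 1.84 in sections 1 to 4 of E5.25 (limma adjusted p = 0.169). It was thus not particular to the low-numbered sections. The visceral endoderm gene Spink3 stood at 86.3, 95.97 and 96.4 in the last columns of E5.25. Cdx2, of the extraembryonic ectoderm, stood at only 3.62, 10.3 and 10.05 in the E5.75 columns. The 10 highest genes of each stage were largely ribosomal protein genes such as Rpl41 and Rps27, with the actin gene Actb and the actin-binding Tmsb10, and none of these passed the rule in any pair.

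Between E5.75 and E5.25, 311 genes gained rank (3.52% of 8832) and 273 lost rank (3.09%). Between E5.5 and E5.25, 213 gained (2.41%) and 209 lost (2.37%), and between E5.75 and E5.5, 270 gained (3.06%) and 259 lost (2.93%). The change just inside the rule was 20.03 points and the one just outside was 19.995 points for E5.75 against E5.25. Ranking all genes of each table in place of the shared genes gave 853 gains and 94 losses for E5.75 against E5.25, where the E5.75 table holds 13618 genes and that of E5.25 holds 10176. The balance of gains and losses thus depends on the genes ranked.

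The genes that gained rank between E5.25 and E5.75 included the homeobox gene Irx2, the stress gene Gadd45g and the trophoblast factor gene Gata2, and those that lost rank included 4 transcription factor genes of the extraembryonic ectoderm list (Cdx2, Eomes, Esrrb and Sox21) and its ligand genes Bmp4 and Bmp8b. The promoters of 4 genes are shown because the results turn on them: Irx2 and Gadd45g, which gained, and Cdx2 and Bmp4, which lost. The choice was made after their values were seen. They are RefSeq sequences of GRCm38.p6, running from 250 bases before to 50 after the gene's start. Irx2 lies at chr13:72628570-72628869, plus strand, Gadd45g at chr13:51846425-51846724, plus strand, Cdx2 at chr5:147307200-147307499, minus strand and Bmp4 at chr14:46390620-46390919, minus strand. Capitals mark matches to the TATA box TATAAA, the AP-2 motif GCCNNNGGC and the E-box CACGTG, searched on both strands together with the AP-1 motif TGANTCA, where N is any base.
Irx2: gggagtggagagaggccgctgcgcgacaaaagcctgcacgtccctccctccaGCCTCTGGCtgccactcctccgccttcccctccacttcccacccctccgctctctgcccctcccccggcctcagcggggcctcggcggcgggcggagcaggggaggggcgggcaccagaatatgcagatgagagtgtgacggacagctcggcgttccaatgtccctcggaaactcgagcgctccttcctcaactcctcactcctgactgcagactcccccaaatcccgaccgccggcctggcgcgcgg
Gadd45g: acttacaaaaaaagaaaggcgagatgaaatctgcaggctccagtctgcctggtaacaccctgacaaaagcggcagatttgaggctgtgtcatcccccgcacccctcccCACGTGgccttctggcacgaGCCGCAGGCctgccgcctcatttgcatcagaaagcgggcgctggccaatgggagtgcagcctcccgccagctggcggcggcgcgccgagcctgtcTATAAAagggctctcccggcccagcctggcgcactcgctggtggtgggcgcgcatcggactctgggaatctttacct
Cdx2: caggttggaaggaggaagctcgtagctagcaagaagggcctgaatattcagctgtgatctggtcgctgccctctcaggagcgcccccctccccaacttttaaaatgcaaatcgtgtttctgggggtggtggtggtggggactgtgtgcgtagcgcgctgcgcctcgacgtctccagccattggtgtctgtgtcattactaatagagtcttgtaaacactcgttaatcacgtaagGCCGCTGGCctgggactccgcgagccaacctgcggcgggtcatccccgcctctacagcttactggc
Bmp4: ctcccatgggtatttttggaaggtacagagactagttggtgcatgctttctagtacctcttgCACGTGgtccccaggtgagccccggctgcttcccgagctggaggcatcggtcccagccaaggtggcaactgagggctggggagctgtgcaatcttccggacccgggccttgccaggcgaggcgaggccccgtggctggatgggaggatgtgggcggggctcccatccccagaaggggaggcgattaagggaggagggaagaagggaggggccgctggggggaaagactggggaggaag

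The AP-2 motif stood in the windows of Irx2, Gadd45g and Cdx2, the E-box in those of Gadd45g and Bmp4, and the TATA box in that of Gadd45g. Over all genes that gained rank with a RefSeq promoter, the AP-2 motif was in 26.6% of 222 windows, against 29.4% of 197 for genes that lost rank and 25.3% of 6323 for all shared genes. The E-box was in 13.1% of the gaining, 8.63% of the losing and 10.9% of all shared promoters. The TATA box was in 7.66%, 6.09% and 6.28% of the same sets, and the AP-1 motif in 4.96%, 3.05% and 4.43%. A match describes letters in a window and is not a binding site.

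**Figure D1:**
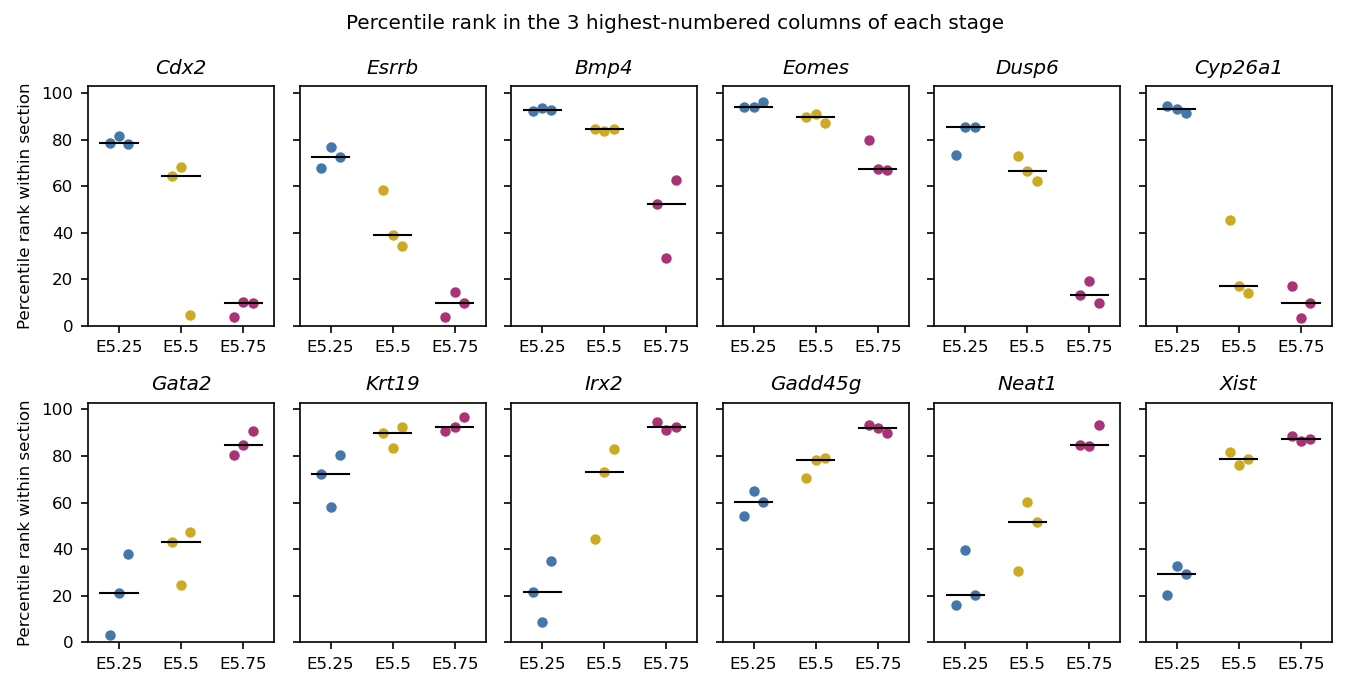
Percentile rank within each of the last 3 columns (y axis) by stage (x axis) for 6 genes that lost rank and 6 that gained rank between E5.25 and E5.75. Each point is 1 column and the bar is the median of 3. Cdx2 and Esrrb lie below 15 in every E5.75 column, whereas Irx2 and Gadd45g lie above 90.

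Of the 16 ranked genes of the extraembryonic ectoderm list, 6 lost rank and 0 gained between E5.25 and E5.75, against 3.09% and 3.52% of all genes. The median change over the list was -6.99 points, beside 0.317 over all genes. Those that lost rank were Cdx2, Eomes, Esrrb, Bmp4, Bmp8b and Sox21. Cdx2 is the homeobox factor that sets up the trophoblast lineage. Cdx2 stood at percentiles 78.4, 81.5 and 78.1 in the E5.25 columns, 64.2, 68.3 and 4.84 at E5.5 and 3.62, 10.3 and 10.05 at E5.75. The E5.75 values lie below all E5.25 values, and E5.5 is divided, with column 11 at 0. Esrrb is a nuclear receptor that keeps trophoblast stem cells renewing. Esrrb stood at percentiles 67.9, 76.6 and 72.6 in the E5.25 columns, 58.2, 38.9 and 34.2 at E5.5 and 3.62, 14.6 and 10.05 at E5.75. No column of one stage overlapped with another stage, so Esrrb lost rank at each step.

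Eomes, the T-box factor of trophoblast stem cells, lost less. Eomes stood at percentiles 94.2, 94.2 and 96.1 in the E5.25 columns, 89.5, 91.2 and 87.3 at E5.5 and 79.95, 67.5 and 66.9 at E5.75. No stage overlapped with another, and it fell by 26.7 points end to end, while the first step alone was under 20 points. Sox21, an HMG-box factor known to restrain trophoblast stem cell differentiation, was lower only at the last stage. Sox21 stood at percentiles 63.6, 52.1 and 68.2 in the E5.25 columns, 60.4, 62.8 and 20.5 at E5.5 and 13.4, 11.3 and 10.05 at E5.75.

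Bmp4, the ligand that extraembryonic ectoderm sends to the epiblast, lost rank mainly at the last step. Bmp4 stood at percentiles 92.2, 93.5 and 92.5 in the E5.25 columns, 84.6, 83.8 and 84.7 at E5.5 and 52.4, 29.2 and 62.7 at E5.75. The columns lie close together at E5.25 and E5.5 and far apart at E5.75, where section 18 is the lowest, and no stage overlapped with another. Its partner ligand Bmp8b kept its place until E5.5. Bmp8b stood at percentiles 86.2, 77.2 and 59.1 in the E5.25 columns, 82.9, 79.5 and 74.1 at E5.5 and 44.6, 42.001 and 34.7 at E5.75. The other 10 ranked members did not pass the rule between E5.25 and E5.75. Zfp42, Ets2 and Fgfr2, the FGF receptor of trophoblast stem cells, changed by -3.79, -0.577 and 2.67 points. The list's members thus parted at E5.75, with Elf5 and Zfp42 above percentile 86 beside Cdx2 and Esrrb below 15.

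The levels along each stage's own sections place these losses. At E5.75, Cdx2 had log2(FPKM + 1) values of 4.32, 4.49 and 4.43 in sections 10 to 12 and 2.82 and 2.73 in sections 14 and 15, against 0.00, 0.37 and 0.00 in sections 17 to 19. Bmp4 had 6.85, 5.96 and 5.02 in sections 10 to 12, against 2.63, 1.63 and 3.08 in sections 17 to 19. At E5.25, by contrast, Cdx2 and Bmp4 were at 0 in sections 1 to 4 and appeared in section 6, so the last 3 sections there are all those with these genes. Within the E5.25 table, Bmp4 averaged 4.995 in the last sections and 0.00 in sections 1 to 4, a difference of 4.995 ± 0.585 (SE; 3 against 4 sections; limma adjusted p = 0.00628).

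With sections 10 to 12 of E5.75 put in place of 17 to 19, an alternative chosen after the data were seen, Cdx2, Bmp4 and Esrrb changed by 7.05, 2.58 and 2.96 points against E5.25, and the losses were gone. Sections 10 to 12 gave 401 gains and 342 losses in all, of which 80 gains and 57 losses were shared with sections 17 to 19. With sections 14 to 16 there were 317 gains and 330 losses, of which 83 and 101 were shared. Cdx2, Bmp4 and Esrrb changed there by -21.8, -44.7 and -66.5 points against E5.25 and were still called as losses. Eomes, Bmp8b and Sox21 changed there by -7.48, -9.11 and -36.2 points and were not called. With the same share of section numbers at each stage, the losses of Cdx2, Bmp8b and Sox21 were not called either, whereas those of Bmp4 and Esrrb were. The calls thus depend on which sections of E5.75 are used, and stage and position cannot be told apart.

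**Figure D2:**
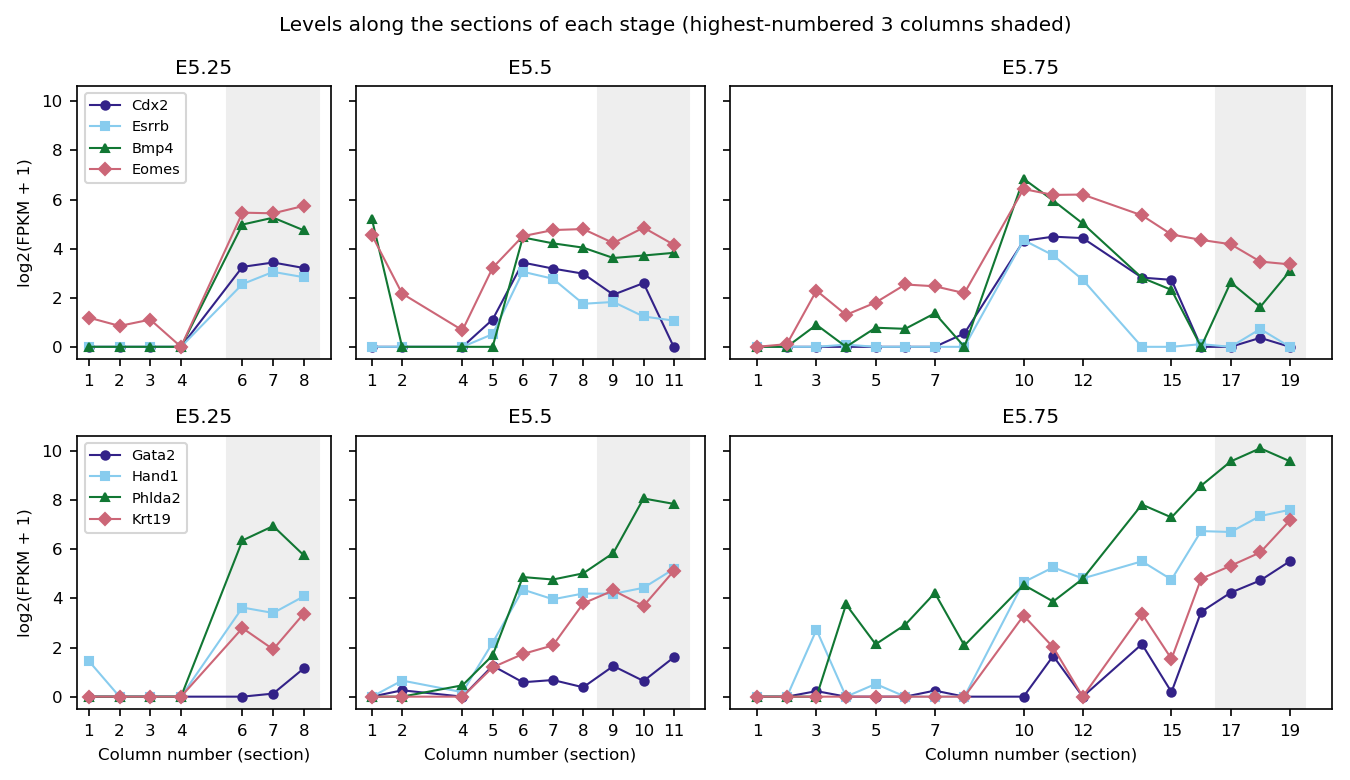
Deposited log2(FPKM + 1) values (y axis) by column number (x axis) in the table of each stage, for 4 genes of the extraembryonic ectoderm (top row) and 4 of the ectoplacental cone and trophoblast (bottom row), with the last 3 columns shaded. At E5.75 the top genes peak in sections 10 to 12 and the bottom genes in sections 17 to 19.

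In the list for the cone and trophoblast, 2 of 14 ranked members gained rank between E5.25 and E5.75, Gata2 and Krt19, and 0 lost, against 3.52% and 3.09% of all genes. The median change over the list was 8.71 points, beside 0.317 over all genes. Gata2 is the zinc-finger factor of trophoblast giant cells and of the cone. Gata2 stood at percentiles 3.16, 21.4 and 38.05 in the E5.25 columns, 43.3, 24.5 and 47.3 at E5.5 and 80.6, 84.9 and 90.9 at E5.75. All E5.75 columns lie above all others, and E5.25 overlaps with E5.5. The gain over E5.25 held under 12 of 15 alternatives. It was not called with the same share of section numbers at each stage, nor with sections 10 to 12 or 14 to 16 of E5.75, where the change was -13.9 and 21.4 points. Krt19 encodes a simple epithelial keratin of trophoblast. Krt19 stood at percentiles 72.2, 58.1 and 80.6 in the E5.25 columns, 90.1, 83.7 and 92.5 at E5.5 and 90.8, 92.5 and 96.7 at E5.75. Its median gain of 20.3 points is just past the threshold and held under 9 of 16 alternatives.

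Several members stood above percentile 80 at E5.25 already, where the rule cannot call them. Hand1, the bHLH factor that giant cells need, stood at 96.1, 96.9 and 97.4 at E5.75, against 82.6, 81.1 and 88.2 at E5.25. Tfap2c, the AP-2 gamma factor of trophoblast, stood at 97.8, 96.3 and 97.9 at E5.75, against 80.5, 63.5 and 83.9 at E5.25. Neither gene overlapped between these stages, as was so for 15.8% of all genes when no size was asked for.

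On quantile-normalized log2 values with a threshold of 1 unit, where the top genes have room, 9 of the 14 were higher at E5.75 than at E5.25 and 1 was lower, against 4.47% and 3.76% of all genes. The 9 were Tfap2c (3.72), Gata2 (3.52), Hand1 (2.92), Phlda2 (2.57), Krt7 (2.31), Krt19 (2.18), Krt8 (1.74), Igf2 (1.54) and Gata3 (1.42), each value being the log2 difference of medians. The lower member was Rhox5, an X-linked homeobox gene, at -1.05. On that scale the same 6 extraembryonic ectoderm genes were lower and 0 were higher.

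Gata2, Krt19 and Phlda2 were also higher in sections 17 to 19 than in the other sections of the E5.75 table. Gata2 had 4.24, 4.73 and 5.52 log2 units in sections 17, 18 and 19 and averaged 4.83 there, against 0.57 over the other 14 sections. The difference was 4.26 ± 0.66 (SE; limma adjusted p = 0.000699), and it was called under all 9 alternatives. Krt19 averaged 6.13 in the last sections and 1.07 in the others, a difference of 5.06 ± 0.91 (limma adjusted p = 0.00363) that was lost without section 19 and at a pseudocount of 0.1. Phlda2 averaged 9.76 in the last sections and 3.72 in the others, a difference of 6.04 ± 1.39 (limma adjusted p = 0.0227). The call for Phlda2 held under 4 of 9 alternatives. It was lost when any of sections 17, 18 or 19 was left out, after quantile normalization and at a pseudocount of 0.1.

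Ascl2, which the ectoplacental cone needs to form, and the placental lactogen Prl3d1, a product of giant cells, were not in the E5.25 table analysed here and so were not ranked. Ascl2 had log2 values of 0.00, 2.85 and 1.51 in the E5.5 columns and 5.53, 5.82 and 4.71 in the E5.75 columns. Prl3d1 had 4.49, 2.08 and 6.56 at E5.5 and 5.67, 8.75 and 9.06 at E5.75. Prl3d1, Prl3d2 and Prl3d3 are near-identical genes whose reads the counting could divide, so their separate values are uncertain. The prolactin Prl7a1 and the placental gene Plac1 were also absent from the E5.25 table, and were highest in section 19 of E5.75 at 7.26 and 7.49. Of 6 ranked genes of the giant cell and prolactin list 1 gained rank over E5.25 by E5.75, the serpin Serpinb9b, and 0 lost. Over all genes 3.52% gained and 3.09% lost. The list's median change was 11.95 points, beside 0.317 over all genes.

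Outside the lists, the homeobox gene Irx2 had one of the largest gains. Irx2 stood at percentiles 21.8, 8.97 and 34.9 in the E5.25 columns, 44.2, 72.96 and 83.03 at E5.5 and 94.8, 91.1 and 92.7 at E5.75. No stage overlapped with another, it gained 70.9 points end to end, and the gain over E5.25 held under all 15 alternatives. At E5.75 it was at 0 in sections 1 to 8 and between 3.31 and 6.26 log2 units in every section analysed from 10 on. Neat1, the long noncoding RNA that builds paraspeckles, gained at the last step. Neat1 stood at percentiles 15.9, 39.8 and 20.3 in the E5.25 columns, 30.7, 60.3 and 51.8 at E5.5 and 84.8, 84.5 and 93.2 at E5.75. It averaged 5.10 log2 units in the last sections of E5.75 and 1.25 in the others, a difference of 3.86 ± 0.77 (limma adjusted p = 0.00784). This call was lost without section 19 and at a pseudocount of 0.1. The sorting nexin gene Snx9 and the kinase gene Rps6ka6 also gained, by 64.1 and 59.3 points.

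Xist, the RNA that silences an X chromosome in female cells, separated the last columns of E5.25 from those of both later stages. Xist stood at percentiles 20.4, 32.8 and 29.3 in the E5.25 columns, 81.9, 76.1 and 78.8 at E5.5 and 88.7, 86.5 and 87.2 at E5.75. Its antisense partner Tsix behaved alike, and without strand information reads of the overlapping genes cannot be told apart. In GENCODE M21 on mm10, Xist is at chrX:103460366-103483254 on the minus strand and Tsix at chrX:103431517-103484957 on the plus strand. Tsix stood at percentiles 22.5, 27.3 and 55.6 in the E5.25 columns, 91.9, 89.2 and 86.6 at E5.5 and 93.99, 91.5 and 93.5 at E5.75. The Y-linked genes Ddx3y and Eif2s3y were listed in the E5.25 table alone, with log2 values of 2.24, 3.06 and 2.13 and of 1.88, 2.83 and 2.85 in its last sections. The labels give no sex. The stages thus differ in X- and Y-linked RNA, and the part of this in other differences between stages was not tested.

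**Figure D3:**
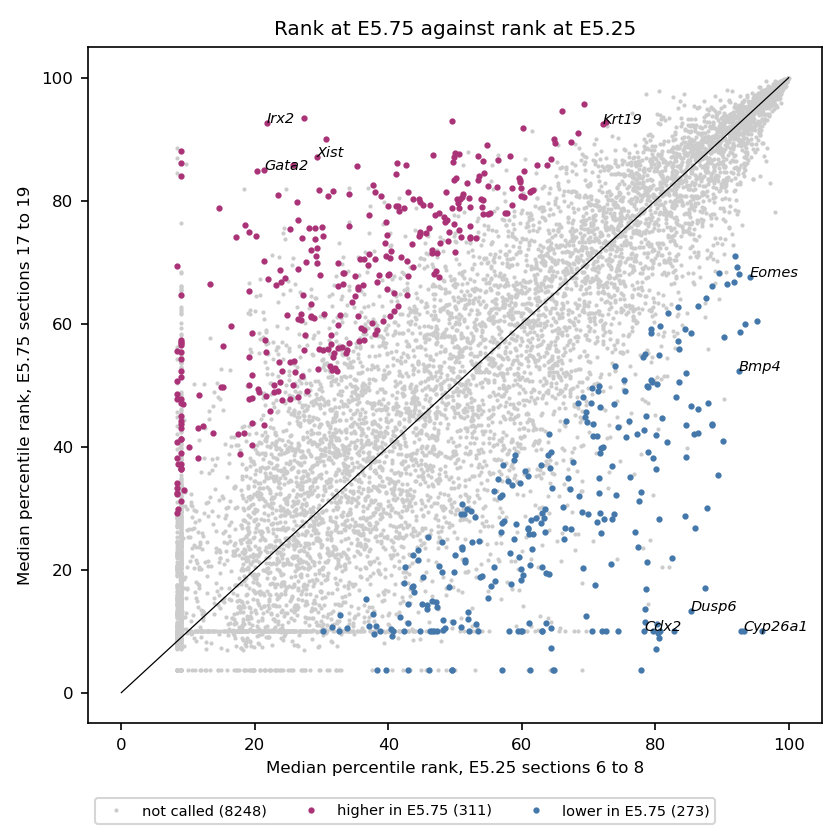
Median percentile over E5.75 sections 17 to 19 (y axis) against the median over E5.25 sections 6 to 8 (x axis) for 8832 genes. Coloured points are the 311 genes that gained rank and the 273 that lost rank, and the line marks equal rank. The cloud narrows towards the top right corner, where the highest genes of both stages lie.

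Genes of FGF and ERK signalling held losses alone. Of 12 ranked members of the list 5 lost between E5.25 and E5.75 and 0 gained, against 3.09% and 3.52% of all genes, with a median change of -19.5 points. They were Dusp6, Etv5, Fgfr1, Spry2 and Spry4. Dusp6, the phosphatase that ERK induces and that turns ERK off, fell furthest. Dusp6 stood at percentiles 73.3, 85.6 and 85.4 in the E5.25 columns, 72.9, 66.3 and 62.1 at E5.5 and 13.3, 19.2 and 10.05 at E5.75. No stage overlapped with another, and the loss passed the rule at the second step and end to end. Spry2 and Spry4 are feedback inhibitors of the same pathway. Spry2 stood at percentiles 94.3, 95.4 and 95.3 in the E5.25 columns, 78.3, 80.2 and 69.5 at E5.5 and 57.6, 60.4 and 87.04 at E5.75. Section 19 stands above the other E5.75 sections. Spry4 stood at percentiles 47.4, 64.6 and 59.9 in the E5.25 columns, 4.82, 18.5 and 23.5 at E5.5 and 18.3, 3.43 and 23.7 at E5.75. Spry4 had reached its low place by E5.5, where it lost rank against E5.25.

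The receptor gene Fgfr1 stood at 39.4, 33.5 and 35.03 at E5.75, against 73.8, 81.2 and 76.3 at E5.25, while Fgfr2 changed by 2.67 points and did not pass. Etv5, an ETS factor that FGF induces, stood at 16.6, 22.4 and 27.5 at E5.75, against 43.7, 39.6 and 60.8 at E5.25. Of the 7 other ranked members none passed, and the immediate early gene Fos changed by 1.72 points. With sections 10 to 12 of E5.75 in place, Dusp6, Spry2, Spry4 and Fgfr1 changed by -13.5, -4.96, -6.67 and -10.7 points against E5.25. None of these was called there, whereas each was still called as a loss with sections 14 to 16. Within the E5.75 table Dusp6 averaged 0.56 log2 units in the last sections and 3.23 in the others, a difference of -2.68 ± 0.66 (limma adjusted p = 0.0348). That call was lost when any of sections 17, 18 or 19 was left out and at a pseudocount of 5.

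Of 12 ranked members of the BMP list 3 lost between E5.25 and E5.75, the ligand genes Bmp4 and Bmp8b and the inhibitory Smad6, and 0 gained, against 3.09% and 3.52% of all genes, with a median change of -11.2 points. Smad6 stood at percentiles 42.9, 47.3 and 80.97 in the E5.25 columns, 53.6, 34.8 and 21.1 at E5.5 and 11.7, 9.26 and 10.05 at E5.75. Of the Id genes, which BMP induces, Id2 changed by 0.0679 points and stayed above percentile 96 in every column. The receptor gene Bmpr1a changed by 3.31 points and did not pass.

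Cyp26a1, the enzyme that clears retinoic acid, had 1 of the largest losses. Cyp26a1 stood at percentiles 94.5, 93.2 and 91.4 in the E5.25 columns, 45.7, 17.1 and 14.1 at E5.5 and 17.001, 3.43 and 10.05 at E5.75. The loss came at the first step, and E5.5 overlaps with E5.75. At E5.75 it had 5.86 and 5.77 log2 units in sections 10 and 11, so with sections 10 to 12 in place it changed by 0.996 points. The cytokine signalling inhibitor Socs2 and the inositol phosphatase Inpp1 lost rank end to end with no overlap at either step, by 74.2 and 71.7 points. Efnb2, a ligand of Eph receptors, lost 70.5 points between E5.25 and E5.75.

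Of 16 ranked members of the epiblast list 2 lost rank between E5.25 and E5.75, Sox2 and Pou3f1, and 0 gained, against 3.09% and 3.52% of all genes, with a median change of -5.14 points. Sox2, which extraembryonic ectoderm also expresses, left at the first step. Sox2 stood at percentiles 58.96, 78.2 and 64.7 in the E5.25 columns, 4.82, 6.02 and 11.01 at E5.5 and 3.62, 3.43 and 10.05 at E5.75. Pou3f1 stood at percentiles 89.4, 90.3 and 88.4 in the E5.25 columns, 81.6, 77.1 and 49.3 at E5.5 and 58.4, 35.3 and 27.1 at E5.75. Within the E5.75 table Pou3f1, a POU factor gene, averaged 1.83 log2 units in the last sections and 5.03 in the others. The difference was -3.20 ± 0.73 (limma adjusted p = 0.0226), and it was lost without section 18 or 19. In sections 10 to 12 of E5.75, Pou3f1 stood at percentiles 93.8, 94.9 and 94.3. Nanog stood between percentiles 76.9 and 92.3 in all 9 columns while Pou5f1 was at 0 in 8, and Nanog has processed pseudogenes whose reads can be assigned to it. Of the 18 listed genes, 1 was at 0 or absent in all last columns of E5.25, 9 in those of E5.5 and 7 in those of E5.75.

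Visceral endoderm genes gave the largest median loss, -36.4 points over 16 ranked members, of which 5 lost rank between E5.25 and E5.75 and 0 gained, against 3.09% and 3.52% of all genes. They were Spink3, Apoa1, Apoa2, Cited1 and Ttr, and the loss of Ttr held under 4 of 15 alternatives. It was lost when section 6 or 7 of E5.25 or section 18 or 19 of E5.75 was left out. Spink3, a trypsin inhibitor gene, fell by 85.9 points, the largest loss of all named genes. Spink3 stood at percentiles 86.3, 95.97 and 96.4 in the E5.25 columns, 98.4, 96.02 and 93.8 at E5.5 and 71.3, 3.43 and 10.05 at E5.75. Section 17 of E5.75 still held it, and sections 18 and 19 listed 0. Apoa1 is a carrier of lipids in serum. Apoa1 stood at percentiles 68.5, 90.2 and 82.8 in the E5.25 columns, 57.99, 26.6 and 4.84 at E5.5 and 54.1, 3.43 and 10.05 at E5.75. Apoa1 lost rank already at E5.5. With sections 14 to 16 of E5.75 in place of 17 to 19, Spink3 and Apoa1 changed by -2.52 and -4.44 points against E5.25 and were not called, and neither was called with the same share of section numbers at each stage. The summed FPKM of the list was 125 to 233 in the E5.25 columns, 160 to 396 at E5.5 and 42 to 151 at E5.75, each in its own table's scale. Fewer cells of a type and less RNA per cell cannot be told apart in such sections, here or in any list.

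Parietal endoderm genes, which build the basement membrane called Reichert's membrane, had medians of 22.1 points for E5.5 minus E5.25 and -31.0 points for E5.75 minus E5.5. Of 10 ranked members 3 gained between E5.25 and E5.5 (Col4a1, Sox7 and Snai1), against 2.41% of all genes, and 5 lost between E5.5 and E5.75 (Col4a1, Col4a2, Nid1, Sparc and Srgn), against 2.93%, with Col4a1 alone in both sets. Col4a1 stood at percentiles 22.7, 37.02 and 23.2 in the E5.25 columns, 88.9, 69.96 and 72.6 at E5.5 and 32.3, 10.7 and 45.2 at E5.75. All E5.5 columns lie above all others. Between E5.25 and E5.75, Nid1 and Sparc lost rank and Snai1 gained. Snai1, a zinc-finger repressor also known from migrating cells, passed the rule at each step. The first call held under 8 of 14 alternatives and the second under 11 of 16. Snai1 stood at percentiles 44.9, 28.3 and 29.6 in the E5.25 columns, 52.1, 45.1 and 76.04 at E5.5 and 80.5, 81.8 and 84.1 at E5.75. Within the E5.75 table it averaged 4.43 log2 units in the last sections and 0.91 in the others, a difference of 3.52 ± 0.65 (limma adjusted p = 0.00397). This call was lost without section 19 and at a pseudocount of 0.1.

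Markers of maternal tissue varied between columns. Of 5 ranked decidual genes 1 gained between E5.25 and E5.75, Prl8a2, a prolactin of decidual cells, and 0 lost. Over all genes 3.52% gained and 3.09% lost. The list's median change was -2.79 points, beside 0.317 over all genes. Prl8a2 stood at percentiles 3.16, 8.97 and 81.6 in the E5.25 columns, 86.1, 22.8 and 43.6 at E5.5 and 82.1, 88.1 and 97.2 at E5.75. It was high in section 8 of E5.25 and column 9 of E5.5 as well. The decidual matrix gene Dcn was at 0 in all E5.5 and E5.75 last columns or absent, and at 0.14, 0.00 and 0.00 log2 units at E5.25. The summed FPKM of the list was 10 to 29 at E5.25, 20 to 65 at E5.5 and 35 to 323 at E5.75. The alpha globin entry Hba-a1Hba-a2 ranged over percentiles 21.6 to 82.5 at E5.25, 6.02 to 35.7 at E5.5 and 24.1 to 74.3 at E5.75, and the leukocyte marker Ptprc was absent from the E5.25 and E5.75 tables and at 0 at E5.5. Of 2 ranked blood genes and 1 endothelial gene, Egfl7, none passed between E5.25 and E5.75, with medians of -22.5 and -20.6 points. The endothelial Cdh5 and Pecam1, absent from the E5.25 table, were highest in section 19 of E5.75 at 5.89 and 4.22 log2 units. The part of maternal cells in the gains was not tested.

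Immediate early and stress genes held more gains than losses. Of 15 ranked members 4 gained between E5.25 and E5.75 and 1 lost, against 3.52% and 3.09% of all genes, with a median change of 11.7 points beside 0.317 over all genes. The gains were Gadd45g, Gadd45b, Ier2 and the AP-1 subunit gene Junb, and the loss was Ier3, which held under 8 of 15 alternatives. Gadd45g, a stress-induced regulator of the cell cycle, stood higher at each later stage. Gadd45g stood at percentiles 54.1, 65.2 and 60.2 in the E5.25 columns, 70.4, 78.5 and 79.01 at E5.5 and 93.2, 91.9 and 90.1 at E5.75. No stage overlapped with another, and the gain over E5.25 held under all 16 alternatives. Junb stood at percentiles 41.2, 44.2 and 19.9 in the E5.25 columns, 51.1, 6.02 and 56.1 at E5.5 and 79.8, 72.2 and 79.2 at E5.75. Within the E5.75 table Junb averaged 4.04 log2 units in the last sections and 1.02 in the others, a difference of 3.02 ± 0.74 (limma adjusted p = 0.0348). The call for Junb held under 4 of 9 alternatives. It was lost when any of sections 17, 18 or 19 was left out, after quantile normalization and at a pseudocount of 0.1. Ier2 stood at 85.6, 79.5 and 87.8 at E5.75, against 69.8, 33.9 and 35.3 at E5.25. Fos, Hsp90aa1 and Dnajb1 did not pass, with changes of 1.72, -0.181 and -0.260 points.

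Cholesterol synthesis genes held losses alone. Of 17 ranked members 3 lost and 0 gained between E5.25 and E5.75, Sqle, Lss and Dhcr7, against 3.09% and 3.52% of all genes, with a median change of -15.0 points. Lss closes the sterol ring. Lss stood at percentiles 68.8, 80.995 and 81.04 in the E5.25 columns, 76.2, 52.01 and 29.5 at E5.5 and 52.3, 44.5 and 44.7 at E5.75. Dhcr7, which makes the last step to cholesterol, had reached its place by E5.5, where it lost rank against E5.25. Dhcr7 stood at percentiles 60.1, 76.1 and 85.7 in the E5.25 columns, 50.9, 45.7 and 44.4 at E5.5 and 49.02, 44.2 and 42.4 at E5.75. Sqle, the squalene oxidizing enzyme, held under 7 of 16 alternatives. Section 19 was the lowest of the E5.75 columns for Hmgcs1 and Insig1, which did not pass, at 44.1 and 32.3.

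**Figure D4:**
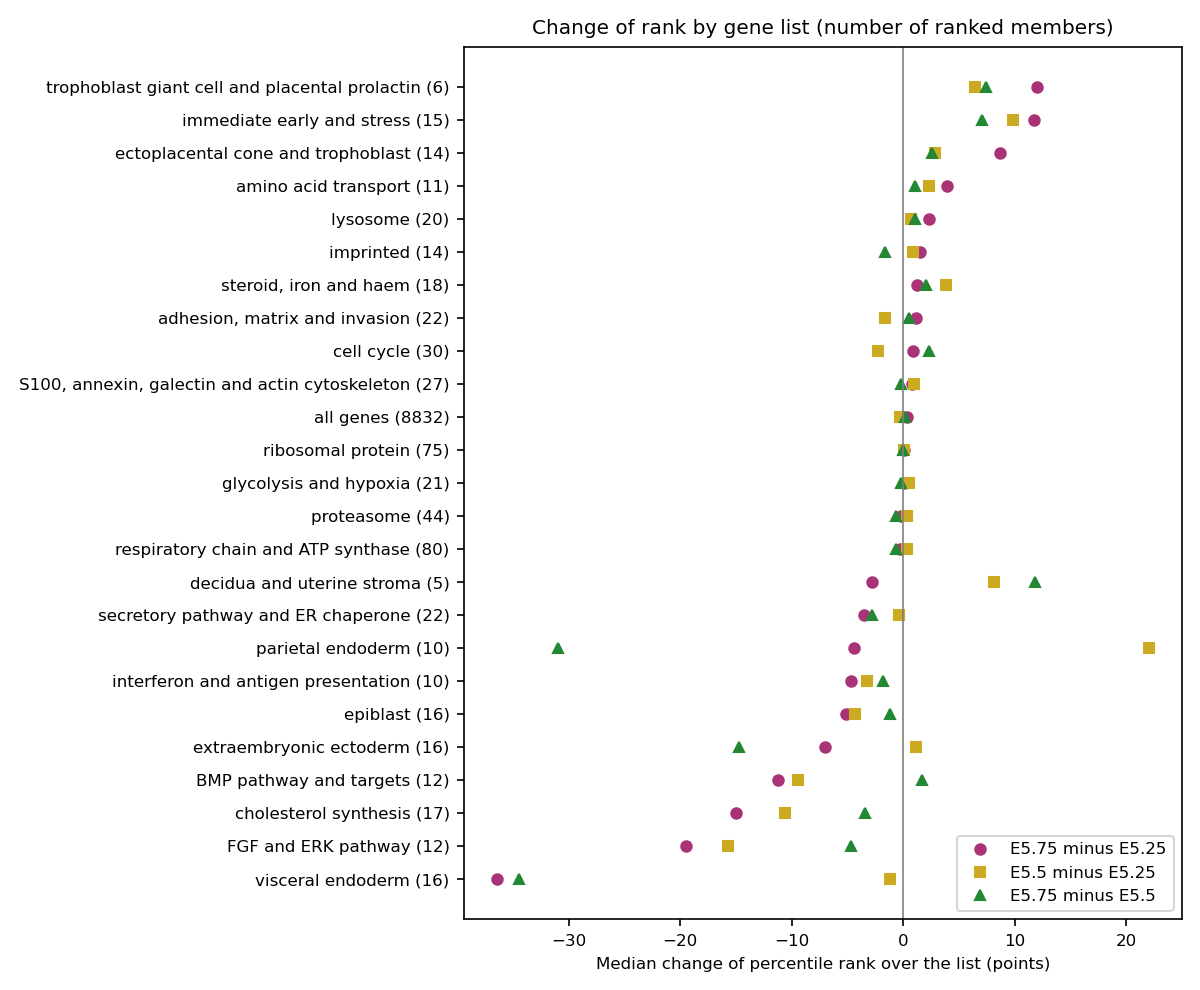
Median change of percentile rank (x axis, points) for each list with at least 5 ranked members and for all genes (y axis), for E5.75 minus E5.25, E5.5 minus E5.25 and E5.75 minus E5.5. Visceral endoderm, FGF and cholesterol genes lie far left for E5.75 minus E5.25, and the parietal endoderm median changes side between the steps.

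Lists of general cell functions held few calls, where 3.52% of all genes gained and 3.09% lost between E5.25 and E5.75. Of 75 ribosomal protein genes 0 gained and 1 lost between E5.25 and E5.75, Rpl39l, with a median change of 0.0453 points. None of 80 respiratory chain and ATP synthase genes, 44 proteasome genes, 30 cell cycle genes, 21 glycolysis and hypoxia genes or 11 amino acid transport genes passed in either direction between E5.25 and E5.75 by rank. Their median changes were -0.260, -0.238, 0.832, 0.0226 and 3.95 points. Ribosomal, respiratory and proteasome genes stood near the top at each stage, with median percentiles of at least 89.3. A gene at such a percentile has too little room for a gain to be called, but members that stand lower can gain. Of the 80 respiratory genes 1 gained between E5.25 and E5.5, Ndufa10 by 22.95 points, and 0 lost. Against E5.5, the cell cycle kinase gene Cdk2 and the inhibitor gene Cdkn1a gained rank at E5.75, by 21.5 and 62.5 points. The gain of Cdk2 held under 7 of 16 alternatives and that of Cdkn1a under all 16.

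By rank, the remaining lists each had 1 or 2 calls between E5.75 and E5.25. Over all genes 3.52% gained and 3.09% lost, with a median change of 0.317 points. Of 14 imprinted genes 2 lost (Mest and Rian) and 0 gained, with a median of 1.5002 points. Of 22 adhesion and invasion genes 2 gained, the laminin receptor gene Itga7 and the heparan sulphate carrier gene Sdc1, and 0 lost, with a median of 1.14. Of 20 lysosomal genes 2 gained, the growth factor precursor gene Grn among them, and 0 lost, with a median of 2.29. Of 27 genes of S100 proteins, annexins, galectins and actin cytoskeleton 1 gained, the calponin Cnn2, and 0 lost, with a median of 0.781. Of 18 steroid, iron and haem genes 1 lost (Stard10), of 22 secretory genes 1 lost (Manf) and of 10 interferon genes 1 lost (Ly6e), with 0 gains and medians of 1.22, -3.51 and -4.72. No mitochondrially encoded gene was in the tables.

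Several of these lists stand near the top, so their counts on quantile-normalized log2 values, with a threshold of 1 unit, differ from those by rank. Between E5.75 and E5.25, against 4.47% higher and 3.76% lower of all genes, 6 of the 27 S100, annexin, galectin and actin genes were higher and 0 lower, and 2 of the 14 imprinted genes were higher and 2 lower. Of the 22 secretory genes 4 were lower and 0 higher, and of the 17 cholesterol synthesis genes 6 were lower and 0 higher. Of the 15 immediate early and stress genes 6 were higher and 1 lower, of the 12 FGF and ERK genes 5 were lower and 0 higher, and of the 16 visceral endoderm genes 4 were lower and 0 higher. Of the 80 respiratory chain and ATP synthase genes 1 was higher and 0 lower between E5.75 and E5.25. Between E5.5 and E5.25, 10 of the 80 were higher and 0 lower, against 3.50% and 2.82% of all genes, and between E5.75 and E5.5, 10 were lower and 0 higher, against 3.94% and 4.04%. In that last pair 4 of the 30 cell cycle genes were higher and 0 lower.

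Stepwise change was rare, meaning a call between E5.25 and E5.75 with no overlap in the same direction at either step, whatever the size of each step. Of 8832 genes 22 gained stepwise (0.249%) and 17 lost stepwise (0.192%). Beside Irx2, Xist, Snx9 and Gadd45g, the gains included the histone gene Hist1h2bc, Klf6, Podxl, which encodes podocalyxin, and Mycn, the N-Myc oncogene. Mycn stood at 63.6, 69.3 and 71.6 in the E5.25 columns, 79.5, 87.3 and 89.4 at E5.5 and 95.7, 94.8 and 96.4 at E5.75. The losses included Bmp4, Eomes, Esrrb, Dusp6, Socs2 and Inpp1. Averaging columns 10 and 11 of E5.5, as parts of 1 section, gave 47 gains and 31 losses. Taking the same share of section numbers at each stage left 1 gain and 0 losses.

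**Figure D5:**
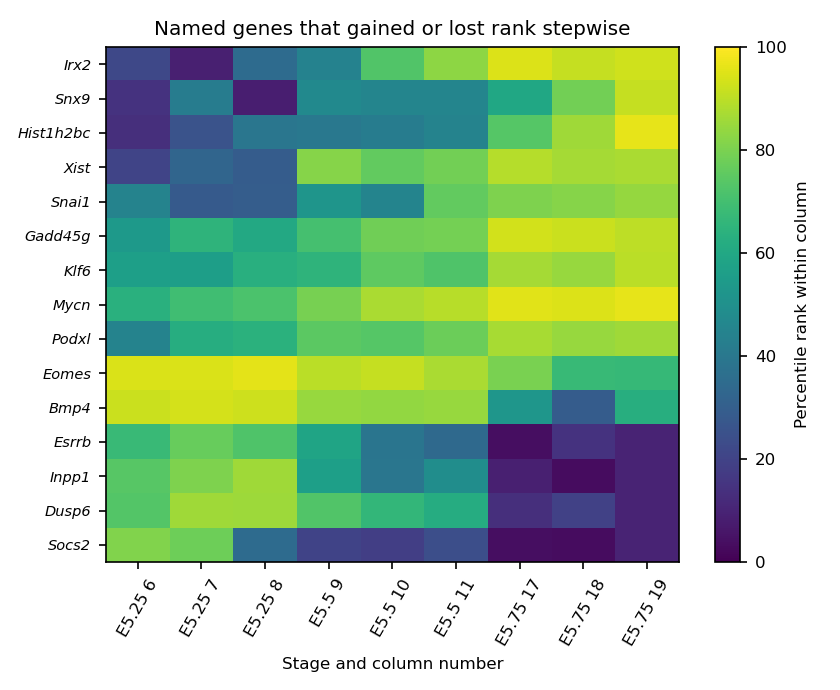
Percentile rank within each of the 9 columns (x axis) of 15 of the genes named in the text that gained or lost rank stepwise (y axis), from the largest gain at the top to the largest loss at the bottom. Tmem2 and Fam100a, also stepwise, are not shown. Colour runs from 0 (dark) to 100 (light). Eomes, Bmp4, Esrrb and Dusp6 are among the genes that grow darker with stage.

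Other genes stood higher or lower at E5.5 than at both other stages. Of 8832 genes, 53 gained rank between E5.25 and E5.5 and then lost it by E5.75, and 36 lost and then gained. Both calls use the same 3 columns of E5.5, from 1 embryo as far as the labels say, so they are not independent. Crxos1, a homeobox gene, is an example of the first kind. Crxos1 stood at percentiles 3.16, 27.7 and 44.4 in the E5.25 columns, 92.2, 91.4 and 89.2 at E5.5 and 32.7, 3.43 and 10.05 at E5.75. Prelid2, of a mitochondrial lipid transfer family, is another. Prelid2 stood at percentiles 17.4, 58.4 and 8.34 in the E5.25 columns, 79.5, 85.2 and 89.7 at E5.5 and 3.62, 3.43 and 10.05 at E5.75. The replication-dependent histone gene Hist1h2bm went the other way. Hist1h2bm stood at percentiles 85.2, 63.8 and 80.7 in the E5.25 columns, 34.96, 6.02 and 4.84 at E5.5 and 83.4, 80.3 and 82.6 at E5.75. Its name is 1 of many near-identical histone genes, so its reads may be divided among copies. Among genes that moved at the last step alone, the merged entry Insl3Jak3 gained 64.2 points and Psmc3ip lost 73.9.

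Tests within a table bear on position, not stage. At E5.75, 169 of 11149 genes were higher in sections 17 to 19 than in the other 14 sections (1.52%) and 6 were lower (0.0538%; limma, Benjamini-Hochberg adjusted p under 0.05). Without section 19 the higher genes numbered 38, and without section 18 they numbered 61. Of the 311 genes that gained rank over E5.25, 28 were among the higher and 0 among the lower, with a median difference of 1.39 log2 units beside 0.43 over all 8544 shared genes tested, of which 101 were higher. Of 269 tested genes that lost rank, 0 were higher and 2 lower, Dusp6 and Pou3f1, with a median difference of -0.39. Rank at E5.75 and this test use the same columns and are not independent.

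At E5.25, 1454 of 7148 genes were higher in sections 6 to 8 than in sections 1 to 4 (20.3%) and 22 were lower (0.308%; limma, adjusted as above), with a median difference of 1.07 log2 units over all genes. After quantile normalization 73 were higher and 1 lower, so most of these calls move with that overall shift. Of the 273 genes that lost rank by E5.75, 131 were higher in the last sections of E5.25, among them Cdx2, Esrrb, Bmp4 and Sox21. These genes were chosen for their rank in the same columns, so this count is a description. After quantile normalization Bmp4, Elf5 and Phlda2 kept their call, and Cdx2, Esrrb and Sox21 did not. At E5.5 no gene passed in either direction of 8251 tested by limma, with columns 10 and 11 averaged, leaving 2 sections against 7. There 429 genes had an unadjusted p under 0.05, and every alternative run also gave 0. The p-values compare sections of 1 embryo and would be too small if read as comparing embryos.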

How the data were processed

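Sections were profiled by Smart-seq2 after laser capture, per the labels' protocols, with 1 embryo per stage as far as the labels say. Titles give many E5.5 sections as parts A and B. Build mm10, TopHat2 2.0.4 and Cufflinks 2.0.2 appear in the submitters' processing notes; the annotation, strand setting and normalization are not given in the sources used here. The deposited tables, 1 per stage, hold values that the authors put on a log2 scale, read here as log2(FPKM + 1). They hold no counts, so depth and its precision are unknown. Their 10176, 13060 and 13618 genes share 8832 by name, and 0 columns of values were left unused.

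Percentiles were computed within each column with pandas 2.3.3 in Python 3.11.15, with the rule given in the report. Within each table, genes that reached an FPKM of 1 in 2 or more columns were tested with limma 3.58.1 in R 4.3.3, last sections against the others, with eBayes trend, 2-sided, and Benjamini-Hochberg adjustment at 0.05. E5.5 columns 10 and 11 were averaged there, and the VE libraries were left out. Both methods were tested on simulated data. Figures used matplotlib 3.10.9.

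The sections, the 27 gene lists and the rules were chosen with earlier results of these data known. Genes named are the 10 largest gains and losses of E5.75 against E5.25 with a median FPKM of at least 10, the 5 largest of each other pair and of the genes changed stepwise, the 10 highest of each stage, up to 4 called members per list, and 13 defining markers. Unnamed gene models were left out. A few genes the rule names are not reported here. Other genes were named after their values were seen. Promoters are RefSeq's for GRCm38.p6. Alternatives were other treatments of ties, genes ranked, filters, thresholds and sections, quantile normalization, pseudocounts of 0.1 and 5, eBayes without trend, and leaving out each column.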

Additional observations from a re-analysis of the deposited data

How the results depend on the processing

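The counts of calls moved with most settings, and counts are of calls, not of shared genes. For gains and then losses, ranks over all genes of each table gave 853 and 94 for E5.75 against E5.25, 518 and 59 for E5.5 against E5.25, 140 losses for E5.75 against E5.5, and 83 and 7 stepwise. Ranks over only those genes that reached an FPKM of 1 in all 9 columns gave 145 and 126, 108 and 87, 131 and 129, and 9 losses stepwise. A threshold of 30 points gave 154 and 172, 110 and 120, and 102 and 135. An FPKM of at least 5 gave 123 losses for E5.75 against E5.25, 89 and 76 for E5.5 against E5.25, and 112 losses for E5.75 against E5.5. The same share of section numbers gave 104 and 97, 108 and 95, 46 and 51, and 1 and 0 stepwise. Averaging columns 10 and 11 of E5.5 gave 47 and 31 stepwise, and quantile-normalized values gave 38 gains there. Leaving out 1 column raised every count, since fewer columns must then be separated: 401 to 658 gains and 378 to 444 losses for E5.75 against E5.25 (highest without E5.25 section 6 for both), 308 to 540 and 301 to 357 for E5.5 against E5.25, 346 to 486 and 332 to 455 for E5.75 against E5.5, and 27 to 47 and 24 to 38 stepwise.

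Within tables, E5.25 gave 911 higher and 9 lower genes with no filter, 73 and 1 after quantile normalization, 35 lower without trend, and 1078 to 1432 higher and 4 to 9 lower without 1 section. E5.75 gave 57 higher genes at a pseudocount of 0.1, 326 at 5, 71 after quantile normalization, 38 to 129 higher and 0 to 3 lower without 1 section, and 16 lower without sections 1 and 2. E5.5 gave 0 throughout. No paired analysis was possible because section numbers are positions and the groups compared share none.

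For the genes named, 1875 recomputed changes kept direction within the spread between columns and 186 moved further. Quantile-normalized changes, in log2 units, were counted among the 1875 by direction alone. The other 51 changed sign, all but 1 of them under the replacement of E5.75 sections, which was chosen after seeing the data; the cause was not tested. With sections 10 to 12, the changes against E5.25 were Gata2 -13.9, Pfpl -1.20, Cyp26a1 0.996, Pou3f1 4.96, Insl3Jak3 -13.9, Arhgef16 -3.15, Fam100a -4.37, Inpp1 7.67, Esrrb 2.96, Cdx2 7.05, Sox21 24.0, Bmp4 2.58, Krt19 -33.1, Serpinb9b -8.02, Sox2 22.5, Mest 10.9, Rian 5.0045, Smad6 24.8, Ier3 21.8, Itga7 -3.39, Cnn2 -5.42 and Stard10 8.25 points. Against E5.5 they were Neat1 -24.6, Gata2 -35.9, Hist1h2bc -9.57, Dusp6 5.62, Tmem2 29.7, Inpp1 39.1, Esrrb 36.7, Sox21 27.2, Bmp4 10.5, Snai1 -11.5, Smad6 37.3, Fgfr1 6.17 and Slc2a3 1.22. With sections 14 to 16, the changes against E5.25 were Pfpl -0.051, Insl3Jak3 -15.3, Krt19 -5.07, Ttr 28.5, Mest 0.226, Sdc1 -0.125 and Stard10 7.85. Against E5.5 they were Neat1 -7.96, Gata2 -0.51, Hist1h2bc -2.34, Tmem2 4.52, Snai1 -10.7, Smad6 1.07, Junb -8.51 and Ly6e 18.3. Stard10 was 4.61 with the same share of section numbers. Sections 10 to 12 gave 517 gains and 541 losses for E5.75 against E5.5, and sections 14 to 16 gave 11 losses stepwise. Of the limma calls of named genes, 228 recomputed values stayed called and 92 did not, with no change of sign.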

Other observations

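Other genes outside the E5.25 table were high in the last sections of E5.75. The cathepsin gene Cts7, a placental protease, had log2(FPKM + 1) values of 0.11, 0.00 and 0.00 in the E5.5 columns and 3.21, 5.79 and 5.253 in the E5.75 columns. The natriuretic peptide gene Nppb had 0.00, 0.37 and 2.92 at E5.5 and 0.96, 5.24 and 6.21 at E5.75. The secretin gene Sct had 0.93, 3.93 and 2.65 at E5.5 and 3.65, 5.56 and 6.92 at E5.75. The troponin gene Tnnc1 had 5.5999, 2.12 and 2.17 at E5.5 and 5.49, 6.17 and 8.63 at E5.75. Section 19 was the highest column of E5.75 for Nppb, Sct and Tnnc1, and section 18 for Cts7. A gene missing from the E5.25 table has no value there, so no change from E5.25 is given.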
